A study of Mus musculus with 35 samples.

Results

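Transcription factors that direct myeloid differentiation were measured in mouse bone marrow progenitors carrying the leukemia fusion NUP98-HOXA9 (NHA9) or mutants of it. The 9 genes, chosen by name, were the C/EBP family members Cebpa, Cebpb, Cebpd and Cebpe, together with Spi1 (which encodes PU.1), Irf8, Gfi1, Klf4 and Runx1. They are 9 of the 49671 genes in the deposited count table, and all 9 passed the filter on low counts that left 17166 genes for testing. The starting cells (lin- HSPCs) were blood stem cells and progenitors, left after bone marrow of C57Bl/6 mice of both sexes had been cleared of cells with markers of mature lineages. In every group, empty vector included, the cells were infected with lentivirus in the CCLMPC backbone and sorted by fluorescence. Empty vector cells were sorted for mCherry, and those of every construct for both mCherry and monomeric EGFP. In comparisons with the empty vector this difference in sorting cannot be told apart from the construct. All cells were then grown for 1 week in methylcellulose with myeloid and erythroid growth factors plus 10 ng/mL GM-CSF. The RNA was therefore that of colonies grown from the sorted cells. The labels give an age of 8 weeks for 32 of the 35 samples, and 9, 10 and 11 weeks for the other three (replicates 4 and 5 of the empty vector and replicate 1 of G-NHA9). Those 3 records follow each other in the sample list, so true ages and a numbering error in the labels cannot be told apart, and age was not used here.

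The 7 groups had 5 replicates each. The empty vector (labelled Empty) was the control and carried no fusion. The fusion tagged with monomeric EGFP (labelled G-NHX9, here G-NHA9) joins the N-terminal part of the nucleoporin NUP98, a disordered stretch rich in phenylalanine-glycine (FG) motifs, to the homeodomain of HOXA9, which binds DNA. G-NHA9-8FA (labelled G-NHX9-8FA) carries 8 phenylalanine-to-alanine changes, and G-NHA9-21FGAA (labelled G-NHX9-21FGAA) has 21 FG motifs changed to alanine-alanine. G-NHA9Midi (labelled G-NHX9-midi) keeps only the C-terminal part of the NUP98 stretch. G-NHA9Midi-21FGAA (labelled G-NHX9-midi-21FGAA) is that shortened construct with its 21 FG motifs changed to alanine-alanine, which leaves it none. G-NHA9-ΔDNA (labelled G-NHX9-DDNA) has a homeodomain mutated to weaken DNA binding. The replicates were numbered 1 to 5 in every group, and no source used here says whether each number stands for 1 mouse, 1 infection or 1 day. The study's methods describe infection with each virus in triplicate, which does not account for 5 samples in a group or say which of them were infected together. The p-values below therefore measure the spread between these samples, which includes the spread between infections only as far as the replicates were separate ones.

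Myeloid cells are made in steps that a small set of DNA-binding proteins controls. PU.1 and C/EBPα commit progenitors to the myeloid lineage, C/EBPβ and C/EBPδ act in later and stress-driven myelopoiesis, and C/EBPε drives the terminal maturation of granulocytes. GFI1 is a repressor that favors neutrophil over monocyte fate, while IRF8 and KLF4 favor monocytes. RUNX1 acts earlier, in the emergence and maintenance of blood progenitors, and in megakaryocytes. Members of this network bind each other's control regions, and several of them are mutated or silenced in acute myeloid leukemia, where maturation is blocked.

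Promoter sequences are shown for the 4 members whose RNA the comparisons below turn on and which had an entry in RefSeq's promoter table for mouse (GRCm38.p6). Of the 9 members, 6 were matched, with 9 promoters in all, and Cebpd, Cebpe and Spi1 had no entry. Each table entry was read over the 250 bases before the start that the table gives, which can lie inside the gene as GENCODE annotates it, and the part shown is the longest stretch that no annotated exon of the gene covers (149 bases for Gfi1, 175 for Runx1, all 250 for the others). The sequences run 5′ to 3′ on the gene's strand, and capitals mark matches on either strand to the short motifs listed below. The Gfi1 stretch lies at chr5:107725806-107725954 on the minus strand, inside the annotated gene, Klf4 at chr4:55532476-55532725 on the minus strand, Cebpa at chr7:35119043-35119292 on the plus strand and the distal Runx1 promoter at chr16:92826150-92826324 on the minus strand.
Gfi1: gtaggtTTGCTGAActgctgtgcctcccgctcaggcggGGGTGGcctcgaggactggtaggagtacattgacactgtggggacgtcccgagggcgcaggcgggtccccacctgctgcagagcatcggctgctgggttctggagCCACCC
Klf4: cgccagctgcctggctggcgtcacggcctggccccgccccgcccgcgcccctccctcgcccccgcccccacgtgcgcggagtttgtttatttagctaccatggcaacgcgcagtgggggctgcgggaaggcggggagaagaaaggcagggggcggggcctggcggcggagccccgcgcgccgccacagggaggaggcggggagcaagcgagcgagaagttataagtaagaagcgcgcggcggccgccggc
Cebpa: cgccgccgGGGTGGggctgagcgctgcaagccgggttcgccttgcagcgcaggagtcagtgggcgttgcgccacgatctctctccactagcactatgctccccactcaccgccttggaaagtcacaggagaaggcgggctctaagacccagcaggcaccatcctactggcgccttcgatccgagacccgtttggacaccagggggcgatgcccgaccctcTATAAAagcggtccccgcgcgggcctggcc
Runx1: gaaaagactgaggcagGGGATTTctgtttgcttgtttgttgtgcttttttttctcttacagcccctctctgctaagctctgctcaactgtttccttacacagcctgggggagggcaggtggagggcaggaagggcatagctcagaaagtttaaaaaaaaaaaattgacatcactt

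The motifs searched, on both strands, were those of the members' own families plus the TATA box. A match of a few letters is a description and not evidence of binding. The C/EBP motif TTNNGNAA was found in 36.8% of 32851 mouse promoters of this length and in 1 of the 9 member promoters, that of Gfi1 shown above, where it starts 143 bases before the start that RefSeq gives, a position inside the annotated gene. The KLF motif CCACCC was in 28.1% of all promoters and in 3 of the member promoters. It occurs 2 times in the Gfi1 promoter, and once each in those of Cebpa and Cebpb. The PU.1 motif GAGGAA was in 23.3% of all promoters and 1 of the members' (the proximal Runx1 promoter, not shown). The GFI1 motif AAATCNC was in 10.3% and in 2, one for Irf8 and the distal Runx1 promoter shown. The RUNX motif TGTGGT, in 14% of all promoters, and the IRF motif GAAANNGAA, in 7.13%, were in none of the 9. The TATA box TATAAA, in 12.4% of all promoters, starts 30 bases before Cebpa and 31 bases before Irf8. The Klf4 promoter holds no match to any of the 7 motifs and has 74% G and C, against a median of 52.4% over all promoters. The promoter of Cebpa has 66.4%, that of Gfi1 shown above 59.2% and the distal one of Runx1 45.6%. The promoters of these genes not shown have 57.6% (Gfi1) and 67.6% (proximal Runx1).

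Libraries held 31559914 to 75810659 counted reads, and each member had between 372 and 21900 counts in every library, and all 70 pairs of replicates within a group differed by more than sampling noise. Levels are given as CPM, the counts scaled to library size and by TMM, and levels of different genes are compared only as CPM per kilobase of exon (RPKM). Changes are log2 fold changes from edgeR's quasi-likelihood test over all 35 libraries, with p-values adjusted by the Benjamini-Hochberg method over all tested genes of a comparison, and the threshold for a call was an adjusted p under 0.05. The cultures expressed primary granule genes (summed level 2138 to 3345 CPM in the empty vector libraries) and late neutrophil, monocyte and macrophage genes, the markers of the myeloid cells that the growth conditions favor. Genes of T cells summed to at most 7.28 CPM in any library. Erythroid genes differed widely between groups, from 23.8 to 73 CPM in G-NHA9-8FA libraries and 41.1 to 78.3 CPM in G-NHA9Midi libraries, against 224 to 685 CPM in the empty vector. In RNA from a whole culture, fewer cells of a type and less RNA per cell cannot be told apart, and that holds for each level below.

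In the annotation of GRCm38, Cebpa lies at chr7:35119293-35121928, Cebpb at chr2:167688915-167690418, Cebpd at chr16:15887286-15891031, Spi1 at chr2:91082390-91115756 and Irf8 at chr8:120736358-120756694, all on the plus strand. Cebpe at chr14:54710360-54712174, Gfi1 at chr5:107716657-107726036, Klf4 at chr4:55527143-55532466 and Runx1 at chr16:92601466-92826149 lie on the minus strand. Genes annotated on the opposite strand overlap Cebpa, Cebpb, Cebpd, Gfi1 and Runx1, while Gm20388 overlaps Irf8 on the same strand. The library kit keeps strand, but the strand setting of the counting is not given in the sources used here, so reads from such neighbors cannot be told apart from those of the member.

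In empty vector cells the members ranged widely in level. Cebpb was highest at 256 ± 40.3 RPKM (SD, n = 5), followed by Spi1 at 80.0 ± 1.89, Klf4 at 41.1 ± 6.61 and Cebpa at 40.3 ± 3.95. Cebpe had 26.7 ± 5.10 RPKM, Cebpd 13.5 ± 1.35, Irf8 12 ± 1.25 and Runx1 11.7 ± 3.67. Gfi1 was lowest at 5.65 ± 1.99 RPKM. In G-NHA9 cells Gfi1 had 20.3 ± 3.31 RPKM and Klf4 12.7 ± 6.37, so that their order was the opposite of that in the control.

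**Figure D1:**
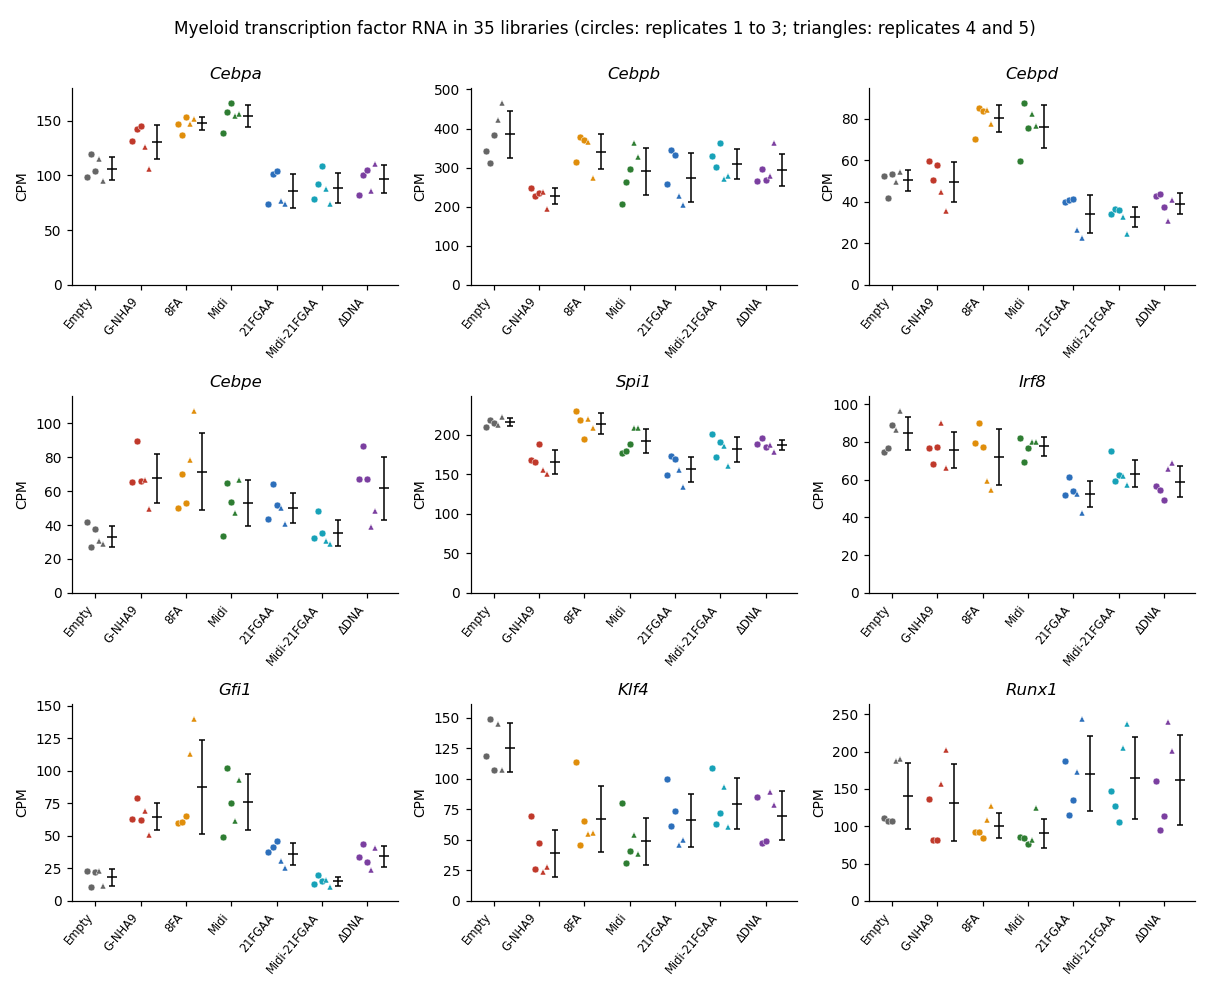
RNA level in CPM (vertical axis, linear, from 0) of each of the 9 transcription factors in the 7 groups (horizontal axis), 1 panel per gene and 1 symbol per library, with circles for replicates 1 to 3 and triangles for replicates 4 and 5, and the mean ± SD of each group in black beside its symbols. Gfi1 sits at 10.8 to 23.1 CPM in the empty vector and at 50.2 to 79.0 CPM in G-NHA9, Klf4 is highest in the empty vector, and the triangles of Runx1 lie above its circles in 5 of the 7 groups.

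The first question was what each construct changed against the empty vector. G-NHA9 cells had more RNA of Gfi1, Cebpe and Cebpa and less of Klf4, Cebpb and Spi1, so that 3 of 9 members rose and 3 fell, where 16.9% of all tested genes rose and 15.2% fell. G-NHA9-8FA cells raised Gfi1, Cebpe, Cebpd and Cebpa and lowered Klf4 (4 and 1 of 9, background 13.4% and 13.2%). G-NHA9Midi cells raised the same 4 genes and lowered Klf4 and Cebpb (4 and 2 of 9, background 20.5% and 20%). With G-NHA9-21FGAA 2 members rose, Gfi1 and Cebpe, and 6 fell, namely Irf8, Klf4, Cebpd, Cebpb, Spi1 and Cebpa (background 14.7% and 12.5%). G-NHA9Midi-21FGAA raised 0 members by edgeR and by DESeq2 and lowered Cebpd, Irf8 and Spi1 (0 and 3 of 9, background 9.59% and 7.32%), and 0 members were higher at an unadjusted p under 0.05. G-NHA9-ΔDNA raised Gfi1 and Cebpe and lowered Klf4 and Irf8 (2 and 2 of 9, background 9.85% and 7.35%). These 6 comparisons share the empty vector libraries and are given side by side for that reason. All counts here are from fits without a replicate block, and members that the block added follow below.

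The median log2 fold change of the 9 members against the empty vector ran from -0.46 in G-NHA9-21FGAA to -0.012 in G-NHA9-8FA, beside medians over all tested genes between -0.02 and 0.03. Runx1 was the only member not called in any of the 6 comparisons in the fit without a replicate block. Some calls near the threshold were lost when 1 library was left out. The rise of Cebpa with G-NHA9 was lost without empty vector replicate 1, 3 or 5 or without G-NHA9 replicate 1, 2 or 3 (adjusted p 0.069 to 0.11). For G-NHA9Midi-21FGAA the number of members that fell was between 1 and 4 when 1 library was left out, and without its replicate 5 only Cebpd was called. In that comparison and in that of G-NHA9-ΔDNA, same-numbered replicates deviated together, and a fit that blocked on replicate number added members. In G-NHA9Midi-21FGAA it also called Cebpa, at -0.28 (adjusted p = 0.023), and Klf4, at -0.72 (adjusted p = 0.011), for 5 members in all. In G-NHA9-ΔDNA it added Cebpb, at -0.38 (adjusted p = 0.049), Cebpd, at -0.37 (adjusted p = 0.046), and Spi1, at -0.21 (adjusted p = 0.036), for 7 members in all.

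**Figure D2:**
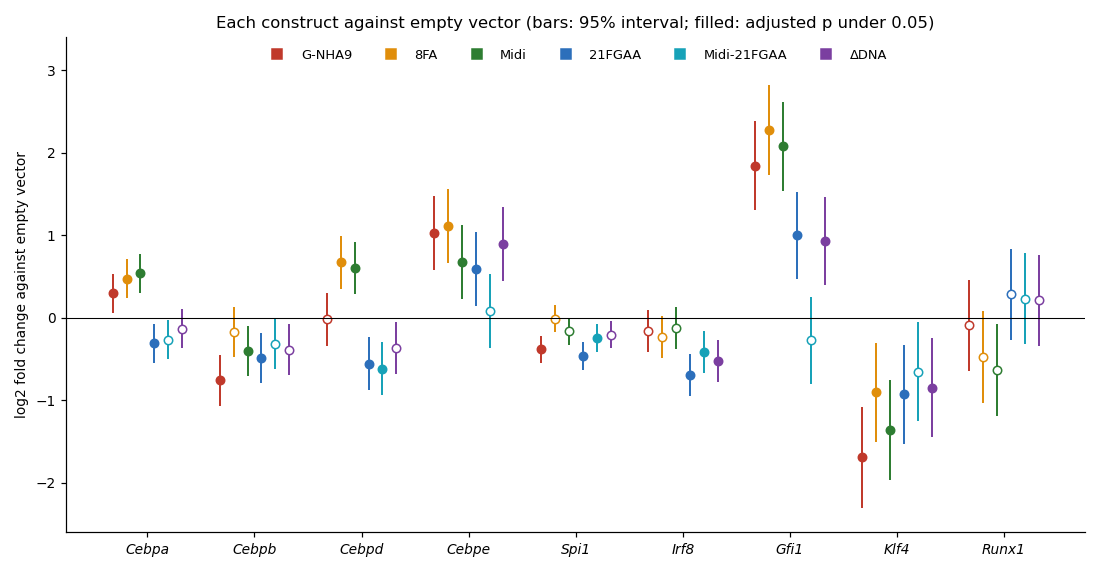
Log2 fold change relative to the empty vector (vertical axis) of each member (horizontal axis) in the 6 constructs, 1 color each, with 95% intervals as bars. Symbols are filled where the adjusted p was under 0.05 in the fit without a replicate block. Gfi1 lies at 1.84, 2.28 and 2.08 in G-NHA9, G-NHA9-8FA and G-NHA9Midi and at -0.28 in G-NHA9Midi-21FGAA, while Klf4 lies below 0 in all 6, with an open symbol in G-NHA9Midi-21FGAA.

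Gfi1, the repressor that favors neutrophil fate, had the largest fold change of the 9 in every comparison with the empty vector in which it was called. In the empty vector its 5 libraries held 23.0, 10.8, 21.9, 23.1 and 11.4 CPM, and in G-NHA9 62.9, 79.0, 61.8, 69.3 and 50.2 CPM. The G-NHA9-8FA libraries held 60.1, 60.8, 65.1, 113 and 139 CPM and those of G-NHA9Midi 49.2, 102, 75.0, 61.7 and 92.5 CPM. Every library of these 3 constructs was above every empty vector library, and in G-NHA9-8FA replicates 4 and 5 stood above replicates 1 to 3. The rise was 3.59-fold for G-NHA9 (log2 fold change 1.84, SE 0.26, adjusted p = 1.1e-06), 4.86-fold for G-NHA9-8FA (log2 fold change 2.28, SE 0.26, adjusted p = 5e-08) and 4.22-fold for G-NHA9Midi (log2 fold change 2.08, SE 0.26, adjusted p = 8.4e-08). The 3 constructs gave no call for Gfi1 between them. G-NHA9-8FA minus G-NHA9 had a log2 difference of 0.44 with a 95% interval of -0.069 to 0.94, and G-NHA9Midi minus G-NHA9 one of 0.23 with an interval of -0.27 to 0.74.

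The other three constructs held less Gfi1. G-NHA9-21FGAA libraries had 37.2, 41.5, 45.6, 30.5 and 25.4 CPM, G-NHA9-ΔDNA libraries 33.7, 43.7, 30.2, 23.6 and 40.4 CPM and G-NHA9Midi-21FGAA libraries 12.8, 19.6, 15.4, 16.2 and 10.5 CPM. G-NHA9-21FGAA and G-NHA9-ΔDNA lay between the empty vector and G-NHA9 without overlapping either, and G-NHA9Midi-21FGAA overlapped the empty vector. G-NHA9-21FGAA was above the empty vector by 1.00 (adjusted p = 0.0034) on the log2 scale and below G-NHA9, with a log2 fold change of -0.84 (adjusted p = 0.015). G-NHA9-ΔDNA was above the empty vector by 0.93 (adjusted p = 0.011) and below G-NHA9, with a log2 fold change of -0.91 (adjusted p = 0.0072). The fall from G-NHA9 to G-NHA9-21FGAA was not called without G-NHA9 replicate 2 or G-NHA9-21FGAA replicate 5 (adjusted p 0.06 to 0.065), and 10 of the 11 comparisons in which Gfi1 was called kept their call in every fit that changed the scaling, filter, tool, block or 1 library.

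Klf4, a zinc finger factor that promotes monocyte differentiation and restrains proliferation, was highest in the empty vector. Its 5 empty vector libraries held 119, 149, 107, 145 and 107 CPM, and those of G-NHA9 held 69.4, 26.3, 47.1, 24.0 and 27.4 CPM. G-NHA9Midi libraries held 80.1, 31.0, 41.2, 53.9 and 38.4 CPM. Both constructs lay wholly below the empty vector, and within each construct replicate 1 was the highest. G-NHA9 cells had 3.23-fold less Klf4 RNA (log2 fold change -1.69, SE 0.29, adjusted p = 3.4e-05) and G-NHA9Midi cells 2.56-fold less (log2 fold change -1.36, SE 0.29, adjusted p = 3e-04). G-NHA9-8FA libraries held 114, 45.9, 65.1, 54.8 and 55.8 CPM, a log2 fold change of -0.90 (adjusted p = 0.018), and replicate 1 alone reached into the control range.

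In the other three constructs the mean of Klf4 lay between those of the empty vector and G-NHA9, as it also did in G-NHA9-8FA and G-NHA9Midi. G-NHA9-21FGAA libraries held 99.7, 60.9, 73.4, 45.4 and 49.7 CPM (log2 fold change -0.93, adjusted p = 0.015 against the empty vector), G-NHA9-ΔDNA libraries 84.8, 47.5, 49.0, 88.8 and 78.6 CPM (-0.85, adjusted p = 0.039) and G-NHA9Midi-21FGAA libraries 109, 63.3, 72.2, 93.5 and 60.8 CPM (-0.65, adjusted p = 0.11). All 3 groups overlapped each other and G-NHA9, and replicate 1 of G-NHA9Midi-21FGAA also reached into the control range. Against G-NHA9 the level was higher in G-NHA9-ΔDNA, at 0.85 (adjusted p = 0.032), and the values for G-NHA9-21FGAA, 0.76 (adjusted p = 0.066), and G-NHA9-8FA, 0.79 (adjusted p = 0.061), did not pass the test. In the paired fit G-NHA9-21FGAA was above G-NHA9 by 0.81 (adjusted p = 0.0043), and G-NHA9Midi-21FGAA was called lower than the empty vector. Several Klf4 calls were near the threshold and were lost when any 1 of several libraries was left out. That of G-NHA9-21FGAA against the empty vector was lost without its replicate 4 or 5 (adjusted p 0.052 to 0.057), and that of G-NHA9-ΔDNA against the empty vector without empty vector replicate 2 or 4 or its own replicate 2 or 3 (0.08 to 0.11). That of G-NHA9-ΔDNA against G-NHA9 was lost without G-NHA9 replicate 2, 4 or 5 or G-NHA9-ΔDNA replicate 1, 4 or 5 (0.059 to 0.092). Replicate 1 held the highest Klf4 level in 5 of the 7 groups, and what the number stands for is not given.

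Cebpa encodes C/EBPα, which progenitors need to become granulocyte-monocyte precursors. The empty vector libraries held 98.6, 119, 104, 114 and 94.9 CPM, those of G-NHA9-8FA 147, 137, 154, 147 and 152 CPM and those of G-NHA9Midi 138, 158, 166, 154 and 156 CPM. Both constructs lay wholly above the control. G-NHA9Midi cells had 1.45-fold more (log2 fold change 0.54, SE 0.11, adjusted p = 0.00017) and G-NHA9-8FA cells 1.39-fold more (log2 fold change 0.47, SE 0.11, adjusted p = 0.0014). G-NHA9 libraries held 132, 143, 145, 125 and 106 CPM and overlapped both the control and the other two constructs (log2 fold change 0.29, SE 0.11, adjusted p = 0.037).

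Cebpa was lower in the 21FGAA constructs than in their parents. G-NHA9-21FGAA libraries held 73.5, 101, 104, 76.2 and 74.2 CPM, all below those of G-NHA9 (log2 fold change -0.60, SE 0.11, adjusted p = 0.00012). G-NHA9Midi-21FGAA libraries held 78.4, 91.9, 109, 87.5 and 73.8 CPM, all below those of G-NHA9Midi (log2 fold change -0.81, SE 0.11, adjusted p = 3.2e-07). G-NHA9-ΔDNA libraries held 81.8, 101, 105, 85.6 and 110.3 CPM, of which 4 lay below all of G-NHA9 (log2 fold change -0.43, SE 0.11, adjusted p = 0.004). Against the empty vector the fall with G-NHA9-21FGAA was small, at -0.31 (adjusted p = 0.034), and was lost without empty vector replicate 2, 3 or 4 or G-NHA9-21FGAA replicate 1, 4 or 5 (adjusted p 0.06 to 0.15).

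Cebpd encodes C/EBPδ, a factor induced by cytokines during granulocyte differentiation. The empty vector libraries held 52.3, 42.0, 53.7, 49.4 and 54.5 CPM and G-NHA9 libraries 59.5, 50.4, 57.7, 44.9 and 35.7 CPM, and these 2 groups did not differ by the test (log2 fold change -0.021, 95% interval -0.33 to 0.28). G-NHA9-8FA libraries held 70.3, 85.4, 83.7, 84.1 and 77.6 CPM and G-NHA9Midi libraries 59.5, 87.4, 75.7, 82.5 and 76.4 CPM. Both groups lay wholly above the empty vector, and G-NHA9-8FA wholly above G-NHA9 also. G-NHA9-8FA exceeded the empty vector 1.59-fold (log2 fold change 0.67, SE 0.15, adjusted p = 0.00089) and G-NHA9 1.62-fold (log2 fold change 0.69, SE 0.15, adjusted p = 0.0015). G-NHA9Midi exceeded the empty vector 1.51-fold (log2 fold change 0.60, SE 0.15, adjusted p = 0.0015) and G-NHA9 1.54-fold (log2 fold change 0.62, SE 0.15, adjusted p = 0.0028).

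The lowest Cebpd levels were in the 21FGAA constructs. G-NHA9-21FGAA libraries held 40.0, 41.1, 41.4, 26.3 and 22.6 CPM and G-NHA9Midi-21FGAA libraries 34.1, 36.6, 36.1, 32.7 and 24.7 CPM. Every library of both was below the empty vector, by log2 fold changes of -0.56 (adjusted p = 0.0057) and -0.62 (adjusted p = 0.005). G-NHA9-ΔDNA libraries held 42.9, 43.6, 37.5, 30.9 and 40.8 CPM and overlapped the control (-0.36, adjusted p = 0.088). A fit that blocked on replicate number called G-NHA9-ΔDNA lower than the control. The fall from G-NHA9 to G-NHA9-21FGAA (log2 fold change -0.53, SE 0.15, adjusted p = 0.01) was lost without G-NHA9 replicate 1 or G-NHA9-21FGAA replicate 5 (adjusted p 0.057 to 0.063).

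Cebpe encodes C/EBPε, which is needed for secondary granules and the final steps of neutrophil and eosinophil maturation. Empty vector libraries held 42.0, 26.9, 37.5, 30.6 and 28.9 CPM, G-NHA9 libraries 65.5, 89.6, 66.2, 66.7 and 49.3 CPM and G-NHA9-8FA libraries 50.1, 69.9, 52.8, 78.1 and 107 CPM. Both constructs lay wholly above the control, by 2.03-fold (log2 fold change 1.02, SE 0.21, adjusted p = 0.00036) and 2.16-fold (log2 fold change 1.11, SE 0.21, adjusted p = 0.00018). G-NHA9-ΔDNA libraries ranged over 38.9 to 86.4 CPM, G-NHA9Midi libraries over 33.6 to 66.5 CPM and G-NHA9-21FGAA libraries over 40.8 to 63.9 CPM. Each of these 3 groups was called higher than the empty vector, by 0.89 (adjusted p = 0.0045), 0.68 (adjusted p = 0.011) and 0.59 (adjusted p = 0.036) on the log2 scale, with 4 of 5 libraries above all controls. The last of these calls was lost without empty vector replicate 2, 4 or 5 or G-NHA9-21FGAA replicate 2, 3 or 4 (adjusted p 0.056 to 0.088). G-NHA9Midi-21FGAA libraries, at 28.9 to 48.2 CPM, overlapped the control (0.078, adjusted p = 0.84). Between G-NHA9-ΔDNA and G-NHA9 the log2 difference of Cebpe was -0.13, with a 95% interval of -0.56 to 0.30.

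Cebpb encodes C/EBPβ, which sustains granulocyte production under stress and is a regulator of macrophage genes. It was the most abundant member per kilobase in the empty vector and moved in the direction opposite to Cebpe in G-NHA9. Empty vector libraries held 343, 311, 384, 421 and 464 CPM and G-NHA9 libraries 248, 226, 235, 236 and 193 CPM, with no overlap (log2 fold change -0.76, SE 0.14, adjusted p = 0.00012). G-NHA9-8FA libraries held 316, 379, 369.6, 365 and 273 CPM, wholly above G-NHA9 (log2 fold change 0.58, SE 0.14, adjusted p = 0.0055) and overlapping the control (-0.18, adjusted p = 0.4). The remaining 4 constructs had group means of 274 ± 62.5 CPM in G-NHA9-21FGAA, 291 ± 59.9 in G-NHA9Midi, 294 ± 40.3 in G-NHA9-ΔDNA and 308 ± 38.1 in G-NHA9Midi-21FGAA (SD, n = 5). Of these, G-NHA9-21FGAA, at -0.49 (adjusted p = 0.011), and G-NHA9Midi, at -0.40 (adjusted p = 0.024), were called lower than the empty vector. The first was lost without G-NHA9-21FGAA replicate 5 (adjusted p = 0.06) and the second without empty vector replicate 5 or G-NHA9Midi replicate 1 or 2 (0.061 to 0.094). A fit that blocked on replicate number also called G-NHA9-ΔDNA lower than the empty vector.

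Spi1 encodes PU.1, whose dose sets the balance between macrophage and granulocyte fate and which activates the receptors for M-CSF, GM-CSF and G-CSF. Its differences were small and its replicates tight. Empty vector libraries held 209.9, 219, 215, 212 and 223 CPM and G-NHA9 libraries 167, 165, 188, 155 and 151 CPM. All G-NHA9 libraries lay below the control (log2 fold change -0.38, SE 0.075, adjusted p = 0.00015), as did those of G-NHA9-21FGAA, at 149, 173, 169, 156 and 134 CPM (log2 fold change -0.46, SE 0.075, adjusted p = 3.8e-05). G-NHA9-8FA, at 194 to 229 CPM, overlapped the empty vector with a log2 difference of -0.012 (95% interval -0.16 to 0.14) and exceeded G-NHA9 by 0.37 (adjusted p = 0.00076). All libraries of G-NHA9Midi (177 to 209 CPM), G-NHA9-ΔDNA (178 to 196 CPM) and G-NHA9Midi-21FGAA (161 to 201 CPM) were also below the control, by -0.17 (adjusted p = 0.075), -0.21 (adjusted p = 0.052) and -0.25 (adjusted p = 0.021) on the log2 scale. Only the last of these 3 passed the test in the fit without a replicate block, and it was lost without G-NHA9Midi-21FGAA replicate 2 or 5 (adjusted p 0.051 to 0.11). The difference for G-NHA9Midi passed without its replicate 4 or 5 (0.043 to 0.046). With a block on replicate number, that of G-NHA9-ΔDNA passed as well.

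Irf8 encodes a partner of PU.1 that drives monocyte and dendritic cell fate and limits neutrophil production. Empty vector libraries held 74.7, 76.9, 88.7, 86.1 and 96.1 CPM. G-NHA9-21FGAA libraries held 51.6, 61.2, 54.1, 52.2 and 42.1 CPM and those of G-NHA9-ΔDNA 56.4, 54.5, 49.3, 65.4 and 69.0 CPM. Both lay wholly below the control (log2 fold change -0.69, SE 0.12, adjusted p = 8.1e-05 and log2 fold change -0.52, SE 0.12, adjusted p = 0.0032). G-NHA9Midi-21FGAA, at 57.0 to 74.9 CPM, was also called lower (-0.42, adjusted p = 0.014), although not without its replicate 5 (adjusted p = 0.053). In the other three constructs the level ranged over 66.0 to 90.1 CPM in G-NHA9, 54.7 to 89.8 CPM in G-NHA9-8FA and 69.6 to 81.8 CPM in G-NHA9Midi, and none passed the test (G-NHA9-8FA did without its replicate 2, adjusted p = 0.039), with log2 fold changes of -0.16 (95% interval -0.40 to 0.082), -0.23 (-0.47 to 0.014) and -0.12 (-0.37 to 0.12).

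Runx1, a frequent target of mutation in acute myeloid leukemia, was called in comparisons between constructs and in none with the empty vector. Empty vector libraries held 111, 107, 107, 187 and 190.1 CPM and G-NHA9 libraries 137, 81.3, 82.1, 157 and 202 CPM. G-NHA9-8FA libraries held 92.6, 91.7, 84.7, 109 and 127 CPM and those of G-NHA9Midi 85.7, 84.7, 76.7, 81.3 and 124 CPM. Replicates 4 and 5 were above replicates 1 to 3 in the empty vector, G-NHA9 and G-NHA9-8FA, whereas in G-NHA9Midi only replicate 5 stood apart. G-NHA9-21FGAA libraries held 187, 115, 135, 172 and 243 CPM, G-NHA9Midi-21FGAA libraries 147, 127, 106, 205 and 237 CPM and G-NHA9-ΔDNA libraries 161, 94.7, 114, 239.6 and 201 CPM. All 3 groups overlapped the control, and the spread inside each group was wide. Set against the empty vector library of the same number, Runx1 was lower in all 5 libraries of G-NHA9-8FA and in all 5 of G-NHA9Midi. A fit with a block on replicate number, which the libraries as a whole did not warrant for these 2 comparisons, called both lower.

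Across the 7 groups the mean of replicates 4 and 5 for Runx1 was 1.25 to 1.79 times that of replicates 1 to 3, and replicate 5 was the highest in 6 groups. G-NHA9Midi cells had less Runx1 than G-NHA9-21FGAA cells (log2 fold change -0.91, SE 0.27, adjusted p = 0.0071) and than G-NHA9Midi-21FGAA cells, for which the difference of the mutant minus the parent was 0.86 (SE 0.27, adjusted p = 0.009). G-NHA9-21FGAA was above G-NHA9-8FA by 0.76 (SE 0.27, adjusted p = 0.027), a call lost without G-NHA9-21FGAA replicate 5 or G-NHA9-8FA replicate 2 or 3 (0.05 to 0.089). Because of that spread, a split by replicate number was added after the levels had been seen. Within replicates 1 to 3 alone the 3 log2 differences were -0.83 (adjusted p = 0.0042), 0.62 (adjusted p = 0.022) and 0.73 (adjusted p = 0.013). Within replicates 4 and 5 alone they were -1.04 (adjusted p = 0.0042), 1.13 (adjusted p = 0.0022) and 0.83 (adjusted p = 0.014). Each difference kept its direction and its call in both subsets. The subsets are parts of the libraries that gave these calls, so they are no independent test of them. Against the empty vector G-NHA9Midi was at -0.63 (adjusted p = 0.056), and it passed the test without empty vector replicate 1, 2 or 3 or without its own replicate 5 (0.028 to 0.047).

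The next question was how the mutants differed from G-NHA9 itself, which all 4 of these comparisons share. G-NHA9-8FA had more Cebpd, Cebpb and Spi1 than G-NHA9 (3 of 9 higher and 0 lower, background 6.43% and 8.04%). G-NHA9Midi had more Cebpd and Spi1 (2 higher and 0 lower, background 8.5% and 11.2%). For these 2 constructs 0 members were lower by DESeq2 or at an unadjusted p under 0.05 either. The Spi1 call, at 0.22 (adjusted p = 0.036), was lost without G-NHA9 replicate 4 or 5 or G-NHA9Midi replicate 4 or 5 (0.084 to 0.1), and 2 of the 5 G-NHA9Midi libraries lay above all of G-NHA9. G-NHA9-21FGAA had less Cebpa, Cebpd, Irf8 and Gfi1 (0 higher and 4 lower, background 8.91% and 8.34%). In that comparison 1 member, Klf4, was higher by DESeq2, and none other at an unadjusted p under 0.05. The paired fit, which same-numbered replicates warranted here, added Klf4 and Runx1, at 0.41 (adjusted p = 0.022), both higher. G-NHA9-ΔDNA had less Cebpa, Irf8 and Gfi1 and more Klf4 (1 higher and 3 lower, background 10.7% and 11.4%). Irf8 fell in G-NHA9-21FGAA (-0.53, adjusted p = 0.0013) and in G-NHA9-ΔDNA (-0.36, adjusted p = 0.026), the latter lost without G-NHA9 replicate 4 or G-NHA9-ΔDNA replicate 1, 2 or 3 (0.056 to 0.12).

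G-NHA9-8FA and G-NHA9Midi gave no call between them for any member (0 higher and 0 lower by edgeR and by DESeq2, background 1.51% and 2.74%). At an unadjusted p under 0.05, 0 were higher and 1 was lower. The widest of their 9 intervals was that of Klf4, with a log2 difference of G-NHA9Midi minus G-NHA9-8FA of -0.46 (95% interval -1.04 to 0.13), and the narrowest that of Spi1, at -0.15 (-0.31 to -0.0011). Within replicates 1 to 3 alone Cebpb was lower in G-NHA9Midi (log2 fold change -0.45, adjusted p = 0.029). G-NHA9-21FGAA differed from both. It had less Cebpa, Cebpd, Spi1, Irf8 and Gfi1 and more Runx1 than G-NHA9-8FA (1 higher and 5 lower, background 15.3% and 17.1%). Against G-NHA9-21FGAA, G-NHA9Midi had more of the same 5 genes and less Runx1 (5 higher and 1 lower, background 18.1% and 18%). Cebpd was 2.23-fold higher in G-NHA9Midi (log2 fold change 1.15, SE 0.15, adjusted p = 2.1e-07), Gfi1 2.11-fold (log2 fold change 1.08, SE 0.25, adjusted p = 0.00091) and Cebpa 1.80-fold (log2 fold change 0.85, SE 0.11, adjusted p = 1.9e-07). In these 3 genes every G-NHA9Midi library was above every G-NHA9-21FGAA library, and the count of 6 members was the same whichever library was left out.

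The 21FGAA mutations were made in 2 constructs, so their effect could be compared between them. In G-NHA9Midi they lowered Gfi1, Cebpd, Cebpa, Cebpe and Irf8 and raised Runx1 and Klf4 (2 higher and 5 lower of 9, background 21% and 22.2%). Gfi1 fell 5.11-fold (log2 fold change -2.35, SE 0.26, adjusted p = 6.6e-09), the largest difference of any member in any comparison, and the lowest G-NHA9Midi library, at 49.2 CPM, was above the highest G-NHA9Midi-21FGAA library, at 19.6 CPM. Cebpd fell 2.32-fold (log2 fold change -1.22, SE 0.15, adjusted p = 5.9e-08). The calls of Irf8 (-0.30, adjusted p = 0.042), Klf4 (0.70, adjusted p = 0.047) and Cebpe (-0.60, adjusted p = 0.022) were near the threshold. Cebpe was lost without G-NHA9Midi replicate 2 or 5 or G-NHA9Midi-21FGAA replicate 4 or 5 (adjusted p 0.056 to 0.071). Irf8 was lost without any 1 of 8 of the 10 libraries (all but G-NHA9Midi replicate 2 and G-NHA9Midi-21FGAA replicate 1, 0.055 to 0.12). Klf4 was lost without G-NHA9Midi replicate 2, 3, 4 or 5 or G-NHA9Midi-21FGAA replicate 1, 3 or 4 (0.053 to 0.13). The other 4 calls, for Gfi1, Cebpd, Cebpa and Runx1, held in each of these fits.

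The effect of 21FGAA in G-NHA9Midi minus its effect in G-NHA9 was tested directly. It was called for 2 members, both more negative in G-NHA9Midi (0 higher and 2 lower of 9, background 7.43% and 5.2%), and 0 were higher by DESeq2 or at an unadjusted p under 0.05. For Gfi1 the log2 effects were -2.35 and -0.84, which differed by -1.51 (SE 0.35, adjusted p = 0.0035). For Cebpd they were -1.22 and -0.53, which differed by -0.68 (SE 0.21, adjusted p = 0.028). The difference for Cebpd was lost without G-NHA9 replicate 4 or 5, G-NHA9-21FGAA replicate 1, 2 or 3, G-NHA9Midi replicate 2 or G-NHA9Midi-21FGAA replicate 5 (0.051 to 0.068). For the other 7 members the test was not passed. Spi1 had the narrowest interval, with a difference of the 2 effects of -0.00056 (95% interval -0.22 to 0.22), and Klf4 the widest, at -0.059 (-0.89 to 0.77).

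**Figure D3:**
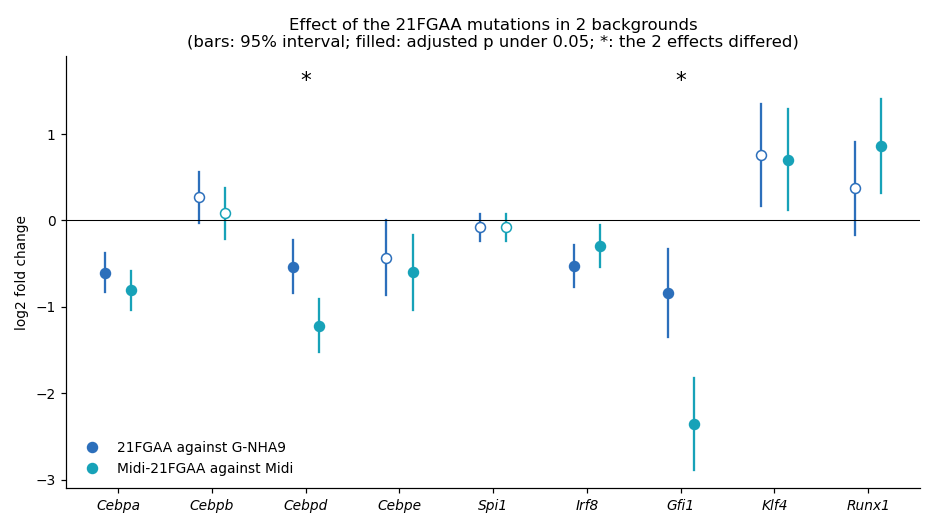
Log2 fold change (vertical axis) of each member (horizontal axis) produced by the 21FGAA mutations in G-NHA9 and in G-NHA9Midi, with 95% intervals as bars, filled symbols where the adjusted p was under 0.05 and asterisks where the effects themselves differed. The asterisks stand at Cebpd and Gfi1, where the G-NHA9Midi effects of -1.22 and -2.35 lie below the G-NHA9 effects of -0.53 and -0.84.

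Close relatives of the members were examined as lists, each count given beside the share of all tested genes called in the same direction (background) and, for lists of 5 or more, the list's median log2 fold change. The medians over all tested genes lay between -0.02 and 0.03 in each comparison with the empty vector. Gfi1b, the paralog of Gfi1 that acts in erythroid cells and megakaryocytes, went the opposite way to Gfi1 between the Midi constructs. Its mean was 3.43 ± 0.498 CPM in G-NHA9Midi and 13.3 ± 3.92 CPM in G-NHA9Midi-21FGAA (SD, n = 5), a log2 fold change of 1.95 (adjusted p = 5e-09) where that of Gfi1 was -2.35. Against the empty vector, at 6.19 ± 1.73 CPM, it was lower in G-NHA9-8FA (-0.96, adjusted p = 0.00087) and G-NHA9Midi (-0.85, adjusted p = 0.0015). It was higher in G-NHA9-21FGAA (1.51, adjusted p = 5.1e-06), G-NHA9-ΔDNA (1.03, adjusted p = 0.0013) and G-NHA9Midi-21FGAA (1.10, adjusted p = 0.00081). Its libraries in G-NHA9Midi, at 2.73 to 4.01 CPM, did not overlap those of G-NHA9Midi-21FGAA, at 8.33 to 18.3 CPM.

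Of the 11 tested relatives of Klf4, 3 fell and 0 rose with G-NHA9 by edgeR, by DESeq2 and at an unadjusted p under 0.05, and the genes that fell were Klf3, Klf10 and Klf13 (background 15.2% lower and 16.9% higher, list median -0.25). The erythroid factor Klf1 ranged from 0.393 ± 0.135 CPM in G-NHA9Midi and 0.526 ± 0.230 CPM in G-NHA9-8FA to 5.72 ± 2.81 CPM in the empty vector and 15.4 ± 7.19 CPM in G-NHA9Midi-21FGAA. Klf1 and Klf4 were both higher in G-NHA9Midi-21FGAA than in G-NHA9Midi, Klf1 by 5.28 (adjusted p = 2.7e-11). Of the 9 relatives of PU.1 in the ETS family, Ets1, Fli1 and Erg were higher than in the empty vector with G-NHA9, G-NHA9-8FA and G-NHA9Midi, and 0 were lower by edgeR or DESeq2 (1 with G-NHA9 at an unadjusted p under 0.05). The background of genes called higher was 16.9%, 13.4% and 20.5%, and the list medians were 0.42, 0.34 and 0.27. In G-NHA9 cells, where Spi1 fell, Erg rose to 32.2 ± 6.57 CPM from 14.7 ± 4.25 CPM (1.13, adjusted p = 3.2e-05), and in G-NHA9-8FA cells Ets1 rose to 91.3 ± 18.6 CPM from 35.9 ± 4.58 CPM (1.35, adjusted p = 9.7e-09). ERG and FLI1 are factors of stem cells and megakaryocytes. Of the 8 other interferon regulatory factors 0 were called with G-NHA9 or G-NHA9-8FA by edgeR, 1 each by DESeq2, and 1 and 3 at an unadjusted p under 0.05 (list medians 0.030 and -0.18). The background was 16.9% higher and 15.2% lower with G-NHA9, and 13.4% and 13.2% with G-NHA9-8FA. With G-NHA9-21FGAA, where Irf8 also fell, 4 of 8 fell (background 12.5%, list median -0.34), among them Irf1 (-0.42, adjusted p = 0.031). Of the 4 relatives and partners of RUNX1 0 were called against the empty vector with any construct by edgeR or DESeq2, and at an unadjusted p under 0.05 only 1, in G-NHA9Midi-21FGAA. The background over these comparisons ran from 9.59% to 20.5% higher and from 7.32% to 20% lower.

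**Figure D4:**
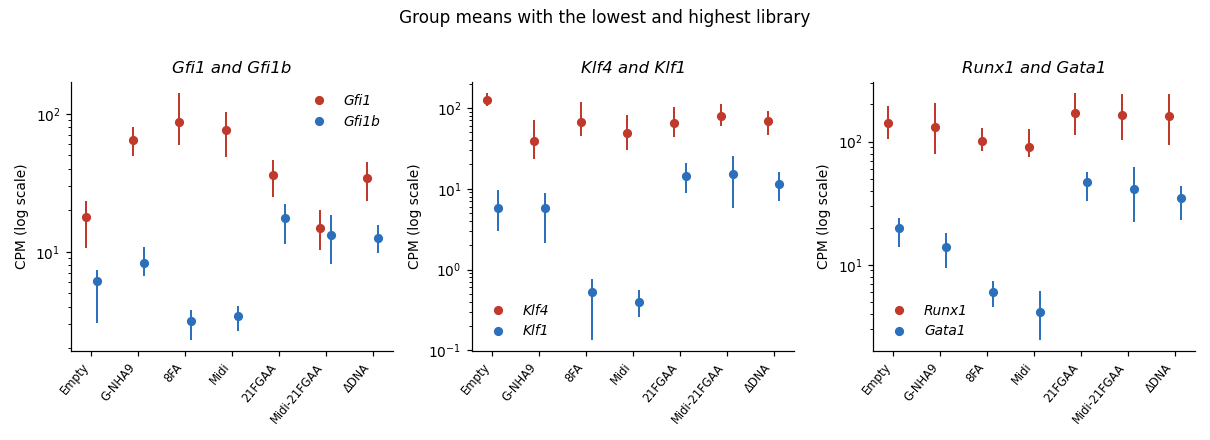
Group means in CPM on a log axis (vertical) over the 7 groups (horizontal) for Gfi1 and Gfi1b, Klf4 and Klf1, and Runx1 and Gata1, with bars from the lowest to the highest library. Each gene is to be read against itself from group to group, since CPM does not correct for gene length. Gfi1 falls from 76.1 to 14.9 CPM between G-NHA9Midi and G-NHA9Midi-21FGAA while Gfi1b goes from 3.43 to 13.3 CPM.

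Of the 3 relatives of the C/EBP genes, 1 rose and 1 fell with G-NHA9 (background 16.9% and 15.2%). Cebpz, a CCAAT-binding protein that is no leucine zipper factor despite its name, rose with G-NHA9 (0.66, adjusted p = 0.0016), G-NHA9-8FA (0.67, adjusted p = 0.0018), G-NHA9Midi (1.14, adjusted p = 7e-07) and G-NHA9-21FGAA (0.45, adjusted p = 0.031). Ddit3, a stress-induced member that lacks normal DNA binding, fell with G-NHA9 (-0.91, adjusted p = 0.021) and with 3 further constructs, and differed between G-NHA9Midi-21FGAA and G-NHA9Midi by -1.17 (adjusted p = 0.0023). Of 6 tested genes from a list of Tribbles genes, Id genes and Cop1, 3 fell with G-NHA9 and 0 rose, also by DESeq2 and at an unadjusted p under 0.05 (background 15.2% lower and 16.9% higher, list median -0.34). Trib3, a pseudokinase of the Tribbles family, was at 92.4 ± 22.7 CPM in G-NHA9Midi and 18.3 ± 2.63 CPM in G-NHA9Midi-21FGAA (-2.34, adjusted p = 5e-08), and Id3, an inhibitor of helix-loop-helix factors, was at 1.22 ± 0.139 and 7.88 ± 1.69 CPM (2.7, adjusted p = 8.1e-11). Between these 2 groups Trib3 went the way of Cebpa and Cebpd, and Id3 the opposite way. Of the 5 corepressors that work with GFI1, Hdac1, Hdac2 and Hdac3 rose with G-NHA9, by at most 0.35 (adjusted p = 0.012), against a background of 16.9% and with a list median of 0.29.

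Receptor genes of myeloid cells were read as a list of 9, which was not drawn up as a list of targets of the members. With G-NHA9 3 of 9 fell (background 15.2%, list median -0.21), and with G-NHA9-21FGAA, in which Spi1, Cebpa and Cebpd all fell, 7 of 9 did (background 12.5%, list median -0.57). In both comparisons 0 rose by edgeR, by DESeq2 and at an unadjusted p under 0.05. The 9 genes summed to 4393 ± 325 CPM in the empty vector, 3284 ± 253 in G-NHA9 and 3507 ± 192 in G-NHA9-21FGAA. The sums were also lower in G-NHA9-8FA (3542 ± 303) and G-NHA9Midi (3017 ± 469), where Cebpa and Cebpd were called higher. In G-NHA9Midi-21FGAA, where Cebpd and Spi1 were called lower, the sum was 4397 ± 824 CPM. Csf3r, the receptor for G-CSF, was at 36.3 ± 3.98 CPM in the empty vector, 33.7 ± 8.06 in G-NHA9, 74.4 ± 8.49 in G-NHA9-8FA and 67.7 ± 2.69 in G-NHA9Midi. Cebpa was called higher in each of these constructs, and Cebpd in G-NHA9-8FA and G-NHA9Midi but not in G-NHA9. Whether the receptors followed these factors was not tested. Csf3r was at 14.5 ± 4.66 CPM in G-NHA9Midi-21FGAA, -2.23 (adjusted p = 2.5e-09) on the log2 scale against G-NHA9Midi. In G-NHA9-21FGAA it was at 21.3 ± 9.39 CPM, against 33.7 ± 8.06 CPM in G-NHA9 (-0.67, adjusted p = 0.038). Of 8 regulators of monocytes and macrophages 5 fell with G-NHA9, 3 with G-NHA9-8FA and 4 with G-NHA9Midi (background 15.2%, 13.2% and 20%, list medians -0.59, -0.67 and -0.70). With these 3 constructs 0 rose by edgeR or DESeq2, and 1 rose at an unadjusted p under 0.05, in G-NHA9-8FA. Nr1h3, which encodes the lipid sensor LXRα of macrophages, was at 5.53 ± 2.27 CPM in G-NHA9 and 23.0 ± 5.17 CPM in the empty vector (-2.06, adjusted p = 2.6e-07). In G-NHA9-ΔDNA 0 of the 8 were called against the empty vector by edgeR or DESeq2, and 2 were lower at an unadjusted p under 0.05. The background there was 9.85% higher and 7.35% lower, smaller shares than with most of the other constructs.

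Among factors of other blood lineages, of 12 tested, 1 rose and 5 fell with G-NHA9-8FA (background 13.4% and 13.2%) and 1 rose and 7 fell with G-NHA9Midi (20.5% and 20%), while 8 rose with G-NHA9-21FGAA (14.7%). The list medians were -0.75, -0.76 and 0.70. Gata1, the master factor of erythroid cells and megakaryocytes, had 5.97 ± 1.04 CPM in G-NHA9-8FA, 4.16 ± 1.31 in G-NHA9Midi, 19.8 ± 3.58 in the empty vector and 46.6 ± 9.25 in G-NHA9-21FGAA. Between G-NHA9-21FGAA and G-NHA9 the log2 difference of Gata1 was 1.73 (adjusted p = 5.1e-07).

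Markers of other cell types moved with several of these differences, and their part in the members' levels was not tested. Between G-NHA9Midi-21FGAA and G-NHA9Midi, 21% of all tested genes were higher and 22.2% lower. Summed over 10 erythroid genes, G-NHA9Midi libraries had 41.1 to 78.3 CPM and G-NHA9Midi-21FGAA libraries 474 to 1531 CPM, and all 10 genes were higher in the latter. Summed over 10 mast cell and basophil genes the ranges were 489 to 925 and 2708 to 6409 CPM, again with all 10 higher. Summed over 9 eosinophil genes they were 44.2 to 129 and 831 to 2371 CPM, with 8 higher and Ccr3 lower. The 9 megakaryocyte genes summed to 147 to 266 and 909 to 1493 CPM, with all 9 higher. In the same comparison 6 of 9 primary granule genes were lower and 1, Ctsc, was higher. The list medians were 6.14 for erythroid, 3.46 for mast cell and basophil, 4.61 for eosinophil, 3.43 for megakaryocyte and -1.22 for primary granule genes. Of these 2 groups, the one with more Gfi1 and Cebpa held less RNA of erythroid, mast cell and megakaryocyte genes. For Gfi1 other groups differed. G-NHA9-21FGAA and G-NHA9-ΔDNA had more Gfi1 than the empty vector, yet mean erythroid sums of 926 and 893 CPM against 384 CPM. Mast cell and basophil sums were 3878 and 3209 against 2612 CPM, and megakaryocyte sums 1706 and 1414 against 1196 CPM, with overlapping ranges. G-NHA9, G-NHA9-8FA and G-NHA9Midi, also with more Gfi1, had lower means than the empty vector in each list. None of the 9 eosinophil or 10 erythroid genes was at 0 in every library of a group, whereas the T cell gene Cd3e was at 0 throughout G-NHA9-ΔDNA.

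Against the empty vector, primary granule genes, the products of promyelocytes, rose with G-NHA9 (6 of 9 higher, 1 lower), G-NHA9-8FA (6 and 1), G-NHA9Midi (5 and 1), G-NHA9-21FGAA (8 and 1) and G-NHA9-ΔDNA (8 higher). Gfi1 and Cebpe were called higher with the same constructs, and a link between them and the granule genes was not tested. The background of genes called higher was 16.9%, 13.4%, 20.5%, 14.7% and 9.85%. The list medians were 1.75, 1.72, 0.86, 1.28 and 1.61. With G-NHA9Midi-21FGAA 2 rose (background 9.59%, list median -0.060). Of 14 late neutrophil genes, 5 fell with G-NHA9 and 0 rose (0 by DESeq2 and 3 at an unadjusted p under 0.05), and 7 rose and 1 fell with G-NHA9-8FA (background 15.2% lower with the first and 13.4% higher with the second, list medians -0.36 and 0.79). The 17 monocyte and macrophage genes summed to 35244 to 47964 CPM in the empty vector, 7908 to 19712 CPM in G-NHA9 and 9706 to 20790.0 CPM in G-NHA9Midi. Klf4 was highest in the first of these groups and lowest in the second. With G-NHA9, where 16.9% of all tested genes rose and 15.2% fell, 7 of these 17 rose and 6 fell (list median 0.39). Of 10 stem and progenitor genes 6 rose and 1 fell (1.10), and of 7 tested dendritic cell genes 2 fell (-0.50). In G-NHA9-21FGAA, where Irf8 fell, 3 of those 7 fell (background 12.5%, list median -0.35). In G-NHA9Midi-21FGAA, where Irf8 also fell, 0 of the 7 fell by edgeR or DESeq2 (background 7.32%). At an unadjusted p under 0.05, 2 were lower there. Of the 3 tested T cell genes 1, Lck, rose with G-NHA9, and of the 2 tested B cell genes 0 were called by edgeR, by DESeq2 or at an unadjusted p under 0.05.

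The genes whose 7 group means were most like those of each member were taken from the 10308 genes that averaged 5 CPM or more, by Pearson's r on the log2 scale. These r values describe 7 points that share the same 35 libraries and cell mixtures, and with so many genes compared high values arise for every member, so no p is given. Runx1 was closest to Gata1 (0.999) and Pde5a (0.998), Gfi1 to Plppr3 and Fam107b (both 0.993), and Klf4 to Sept9 (0.996) and Zeb2 (0.995), the last a factor of monocytes and dendritic cells. Cebpa was closest to Cdk2ap2 (0.995) and Card9 (0.992), Cebpd to Gmfg (0.997) and Aoah (0.995), and Cebpe to 1700020L24Rik (0.978) and Prtn3 (0.969), a primary granule protease. Cebpb was closest to Akirin1 (0.992) and Fos (0.986), Spi1 to Nmt1 (0.989) and Adrm1 (0.987), and Irf8 to Slc35c2 (0.977) and Tyk2 (0.969). Between members, r over the 7 group means was 0.957 for Cebpa and Cebpd, 0.881 for Cebpe and Gfi1, 0.874 for Cebpb and Klf4 and -0.976 for Cebpa and Runx1.

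In the order of the group means, neighboring groups overlapped throughout for 7 of the 9 members and for 89.1% of all tested genes. The exceptions were Cebpd, where the lowest G-NHA9Midi library (59.5 CPM) was above the highest empty vector library (54.5 CPM), and Gfi1, with a gap between G-NHA9 (lowest 50.2 CPM) and G-NHA9-21FGAA (highest 45.6 CPM) and another between G-NHA9-ΔDNA (lowest 23.6 CPM) and the empty vector (highest 23.1 CPM). Over all 15 comparisons the 9 members gave 135 tests, of which 66 were called, where 24.2% of the tests of all genes were. Of those 66, 15 had a log2 fold change of at least 1 in size, 8 of them in Gfi1, and 8.57% of the tests of all genes were called with a change of that size. The comparisons share libraries, so these tests are not independent of each other.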

How the data were processed

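RNA was sequenced from 35 cultures of infected lin- HSPCs in 7 groups of 5 after first plating (Illumina, paired-end, total RNA with strand kept). The deposited table holds whole-number read counts per gene, not normalized, that the authors made with, per the labels' processing notes, STAR 2.7.0d, HTSeq 0.11.2 and the mm10 build, while the annotation and strand setting are not given in the sources used here. Samples were grouped by their labels. Gene IDs were matched without their version to GENCODE's annotation of GRCm38 for 49326 of 49671 genes (99.31%).

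Counts were filtered with filterByExpr (17166 genes kept, holding 99.96% of the reads), scaled by TMM (factors 0.899 to 1.11) and fitted in edgeR 4.0.16 (R 4.3.3, limma 3.58.1) with 1 mean per group over all 35 libraries. Each of 15 comparisons was tested by the quasi-likelihood F-test with Benjamini-Hochberg adjustment over its genes at 0.05. The standard error (SE) was taken from the fold change and F. Intervals are 95% and single-comparison. CPM and RPKM are TMM-scaled, and RPKM used merged exon length. The code was tested on simulated data. Alternatives were DESeq2 1.42.0, other scaling and filters, a fold threshold, fits of the compared groups only, a replicate block and leaving out each library. Subsets by replicate number were added after the data were seen.

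Same-numbered replicates deviated together (mean correlation of deviations from group means 0.232, against -0.0571 for other numbers). All 5 pairs exceeded 0.1 in 5 of 14 comparisons, which were taken as paired: the empty vector with G-NHA9, with G-NHA9Midi-21FGAA and with G-NHA9-ΔDNA, then G-NHA9 with G-NHA9-ΔDNA and with G-NHA9-21FGAA. The main tests were unpaired in these comparisons too, and the calls that the replicate block added are given beside them.

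The 9 members and 22 lists of other genes were chosen with earlier results of these data known. The rule named the members in every comparison, the 2 genes most like each member and, from each list that marks no other cell type, the called genes with the highest and lowest log2 fold change among those of at least 1 CPM. Values of a rule-named gene in other groups, and the members of counts of 5 or fewer, were added after they had been seen. Promoters are RefSeq's (GRCm38.p6).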

Additional observations from a re-analysis of the deposited data

Results flagged for a closer look

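For Gfi1 the effect of 21FGAA differed between its constructs by a log2 value of -1.51 (SE 0.35, adjusted p = 0.0035, edgeR), with all 5 libraries lower than every parent library in G-NHA9Midi and in G-NHA9. For Cebpd the difference of effects was -0.68 (SE 0.21, adjusted p = 0.028), with all 5 libraries below the parent in G-NHA9Midi and 2 of 5 in G-NHA9. Both differences were tested as an interaction over all 4 groups.

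In 2 of 63 sets of 5 libraries, 1 library stood apart from the others by Dixon's test, which chance alone does in about 1 of 20 sets. Replicate 1 of G-NHA9-8FA held 114 CPM of Klf4, and its gap to the next library was 0.719 of the group's range. Replicate 5 of G-NHA9Midi held 124 CPM of Runx1, with a gap of 0.812 of the range.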

How the results depend on the processing

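Of 2790 values of the 135 member results under the alternatives, 0 changed the direction of a called difference, 186 lost a call and 73 gained one. Among the 66 calls, 47 were kept under every scaling, filter, tool, block and left-out library (7 of 9 for Cebpa, 2 of 4 for Cebpb, 9 of 11 for Cebpd, 4 of 6 for Cebpe, 5 of 7 for Spi1, 5 of 8 for Irf8, 10 of 11 for Gfi1, 3 of 7 for Klf4 and 2 of 3 for Runx1). DESeq2 gained 7 calls and lost 1, size factors by RLE gained 2 and lost 1, and a minimum of 1 CPM gained 2. Without TMM the median of all genes shifted against the empty vector by 0.077 to 0.19 on the log2 scale.

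Requiring a log2 fold change of at least 1 left, of the members called against the empty vector, 3 of 6 for G-NHA9, 2 of 5 for G-NHA9-8FA, 2 of 6 for G-NHA9Midi, 1 of 8 for G-NHA9-21FGAA and 0 of the 3 and 4 for G-NHA9Midi-21FGAA and G-NHA9-ΔDNA. Against G-NHA9 it left 0 in all 4 comparisons, and of the others 2 of 7 for G-NHA9Midi-21FGAA against G-NHA9Midi, 2 of 6 for G-NHA9-21FGAA against G-NHA9-8FA, 2 of 6 for G-NHA9Midi against G-NHA9-21FGAA and 1 of 2 for the difference of the 21FGAA effects. The remaining counts that moved by over 1.5 times were those of G-NHA9Midi-21FGAA against the empty vector, 1 in place of 3 without TMM and without the filter, and of G-NHA9Midi against G-NHA9, 1 in place of 2 in both and in the fit of the compared groups only. That last fit also left 1 of 2 for the difference of the 21FGAA effects. For most of these settings the cause was not tested, while the fold threshold removes calls by construction.

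With the replicate block the counts were against the empty vector 7 in place of 4 for G-NHA9-ΔDNA, 5 in place of 3 for G-NHA9Midi-21FGAA, and 4 in place of 2 for G-NHA9Midi against G-NHA9. The block lost no member's call and gained 13. Where the numbers were not taken as paired it gained Runx1 in G-NHA9-8FA (-0.43, adjusted p = 0.011) and G-NHA9Midi (-0.59, adjusted p = 0.00049) against the empty vector. It also gained Cebpa (0.25, adjusted p = 0.035) and Runx1 (-0.46, adjusted p = 0.0084) in G-NHA9Midi and Klf4 (0.80, adjusted p = 0.0055) in G-NHA9-8FA against G-NHA9, and Cebpe (-0.53, adjusted p = 0.032) in G-NHA9-21FGAA against G-NHA9-8FA. In the paired comparisons it changed no call beyond the 7 given with the results. Replicates 1 to 3 alone called 3 in place of 8 members for G-NHA9-21FGAA and 1 in place of 3 for G-NHA9Midi-21FGAA against the empty vector, 1 in place of 2 for G-NHA9Midi against G-NHA9 and 1 in place of 0 for G-NHA9Midi against G-NHA9-8FA. Replicates 4 and 5 alone called 0 in place of 4 for G-NHA9-ΔDNA relative to the empty vector, 5 in place of 2 for G-NHA9Midi against G-NHA9, 1 in place of 4 for G-NHA9-ΔDNA against G-NHA9 and 0 in place of 2 for the difference of the 21FGAA effects. These subsets were added after the data were seen and hold fewer libraries. Over all genes, replicates 4 and 5 called 13 for G-NHA9-ΔDNA against the empty vector, where all libraries called 2952. For G-NHA9Midi against G-NHA9 they called 2983, where all libraries called 3378. Against the empty vector, replicates 1 to 3 called 2602 in place of 4660 genes for G-NHA9-21FGAA and 1378 in place of 2903 for G-NHA9Midi-21FGAA.

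With 1 library left out, the members called against the empty vector numbered 5 to 6 for G-NHA9 and for G-NHA9-8FA, 5 to 8 for G-NHA9Midi and for G-NHA9-21FGAA, 1 to 4 for G-NHA9Midi-21FGAA and 3 to 5 for G-NHA9-ΔDNA. Against G-NHA9 they numbered 3 to 4 for G-NHA9-8FA, 1 to 3 for G-NHA9Midi, 3 to 5 for G-NHA9-21FGAA and 2 to 5 for G-NHA9-ΔDNA. They numbered 4 to 6 for G-NHA9Midi-21FGAA against G-NHA9Midi, 0 for G-NHA9Midi against G-NHA9-8FA, 5 to 8 for G-NHA9-21FGAA against G-NHA9-8FA, 6 for G-NHA9Midi against G-NHA9-21FGAA and 1 to 2 for the difference of effects. Calls gained without 1 library and not named above were, against the empty vector, Cebpa in G-NHA9Midi-21FGAA (its replicate 3, adjusted p = 0.035) and Cebpb in G-NHA9-ΔDNA (empty vector replicate 1 or 2 or its replicate 5, 0.023 to 0.048). Against G-NHA9 they were Cebpb in G-NHA9Midi (its replicate 1, 0.023), Klf4 in G-NHA9-8FA (G-NHA9 replicate 1 or G-NHA9-8FA replicate 2, 0.0084 to 0.046), Klf4 in G-NHA9-21FGAA (G-NHA9 replicate 1 or G-NHA9-21FGAA replicate 4 or 5, 0.0065 to 0.047), and in G-NHA9-ΔDNA Cebpd (G-NHA9 replicate 5, 0.032) and Spi1 (G-NHA9 replicate 3, 0.031). Against G-NHA9-8FA they were, in G-NHA9-21FGAA, Cebpb (its replicate 2 or 3, 0.046 to 0.047) and Cebpe (its replicate 2 or G-NHA9-8FA replicate 1 or 3, 0.039 to 0.047).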
